A study of Mus musculus with 12 samples.

Results

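The cAMP phosphodiesterases described here are 9 genes, *Pde3a*, *Pde3b*, *Pde4a*, *Pde4b*, *Pde4d*, *Pde7a*, *Pde7b*, *Pde8a* and *Pde10a*. They were taken from the 56980 genes of the count matrix by their Ensembl identifiers, and all 9 were present in it. Bulk RNA-Seq was performed on W-20 cells (W-20-17), a murine bone marrow stromal cell (BMSC) line that is used as a model of osteoblast and adipocyte precursors. WT cells and cells carrying the Y428F form of YAP, in which tyrosine is replaced by phenylalanine, were given either 50 nM parathyroid hormone (PTH) or vehicle (PBS) for 2 hours. There were 4 groups of 3 libraries, taken from the library titles. The genotype label of the Y428F libraries reads WT, against their titles, and every comparison between the lines rests on the titles. In the study's methods, mutant Flag-tagged YAP was introduced on a plasmid and the positive clones were kept under puromycin, so the Y428F cells also differ from WT cells in selection. The study worked with a line that also carries S381A, and the library titles name Y428F only. No library of cells with introduced WT YAP was analysed here, and the mutation and other differences between the lines cannot be told apart. The labels do not say whether the 3 libraries of a group came from separate cultures, so the p-values measure the spread between these libraries, which may be technical. Library totals ran from 17127897 to 19057319 counts, with a median of 17740980.5.

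PTH binds a receptor on stromal and osteoblast lineage cells that couples to Gs and raises cAMP, which activates protein kinase A and Epac. Phosphodiesterases hydrolyse cAMP and so set how high, how long and where in the cell the signal lasts. The PDE4 enzymes are specific for cAMP and are the targets of rolipram, and their long forms are phosphorylated by protein kinase A. The PDE7 and PDE8 enzymes are also specific for cAMP but are not blocked by rolipram, whereas PDE3 and PDE10 enzymes hydrolyse both cAMP and cGMP. *Pde4* transcription from internal start sites is a known target of cAMP itself, a negative feedback on the hormone signal.

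Of the 9 genes, 4 were expressed in every library and 5 were near the detection limit. *Pde4a* was found at 251 to 589 counts per library, *Pde4b* at 177 to 427, *Pde4d* at 111 to 601 and *Pde7a* at 358 to 477. Each of the other 5 stayed under 11 counts in every library. Levels below are given in CPM, each count relative to its library total after trimmed mean of M-values (TMM) scaling, with SD and n = 3. Because RNA was taken from whole cultures, fewer cells that express a gene and less RNA per cell cannot be told apart. WT PTH library 1 stood apart from the rest, with 45 genes of at least 5 counts that no other WT library contained, while each of the others had 3 to 18 such genes. Without it PTH called 905 genes in WT cells in place of 1837, and the members called were still 2. After removal of genes with fewer than 10 counts in total, 5 members could be tested among the 6 WT libraries and 6 among all 12.

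Promoter sequences were examined first, and 4 windows of the PDE4 genes are shown because they are 3 of the 4 expressed members and the family known for feedback by cAMP. RefSeq windows of 300 bases around a start site (GRCm38.p6) were held for 6 of the 9 members, 12 windows in all, and were placed on GRCm39 by exact match. *Pde3a*, *Pde3b* and *Pde7a* had no entry. Each sequence is printed 5′ to 3′, and capitals mark matches, on either strand, to the CRE core TGACG or its reverse complement CGTCA, or to the TEAD motif GGAATG. Matches to the CCAAT box are not marked. The *Pde4d* window and the windows of *Pde4b* and *Pde4a* that hold a marked motif are printed, while 3 other *Pde4b* windows and 1 other *Pde4a* window, which hold neither, are not. The *Pde4d* window is chr13:108790461-108790760, at the start of transcript Pde4d-209, and the printed *Pde4b* window is chr4:102278502-102278801, at Pde4b-205. The first *Pde4a* window is chr9:21076760-21077059, at Pde4a-202 and others, and the second is chr9:21095147-21095446, at Pde4a-203.
Pde4d: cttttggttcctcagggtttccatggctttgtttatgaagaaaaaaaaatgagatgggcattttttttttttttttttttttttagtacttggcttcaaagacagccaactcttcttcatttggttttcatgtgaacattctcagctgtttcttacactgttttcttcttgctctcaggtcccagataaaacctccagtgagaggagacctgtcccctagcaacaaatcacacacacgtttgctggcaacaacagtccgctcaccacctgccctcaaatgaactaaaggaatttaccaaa
Pde4b: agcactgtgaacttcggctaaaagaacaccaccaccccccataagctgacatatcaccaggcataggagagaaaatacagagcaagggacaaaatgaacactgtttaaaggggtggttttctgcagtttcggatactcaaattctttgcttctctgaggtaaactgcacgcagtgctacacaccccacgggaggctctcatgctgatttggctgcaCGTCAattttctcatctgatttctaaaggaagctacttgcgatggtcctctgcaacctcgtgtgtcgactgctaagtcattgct
Pde4a, first: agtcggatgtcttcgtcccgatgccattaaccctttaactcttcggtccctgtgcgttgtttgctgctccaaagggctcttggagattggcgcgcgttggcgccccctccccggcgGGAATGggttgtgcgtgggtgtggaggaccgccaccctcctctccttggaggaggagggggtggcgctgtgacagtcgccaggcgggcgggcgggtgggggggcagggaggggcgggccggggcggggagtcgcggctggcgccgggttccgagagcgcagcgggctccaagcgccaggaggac
Pde4a, second: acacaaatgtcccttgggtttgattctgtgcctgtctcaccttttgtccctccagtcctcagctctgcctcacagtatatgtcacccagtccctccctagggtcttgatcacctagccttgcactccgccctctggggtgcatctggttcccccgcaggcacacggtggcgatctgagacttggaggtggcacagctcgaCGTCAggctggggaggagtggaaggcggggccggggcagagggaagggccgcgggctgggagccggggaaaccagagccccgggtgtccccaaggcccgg

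The full cAMP response element TGACGTCA was in none of the 12 windows, and in 1.79% of the 32851 RefSeq windows of the same length. Its core TGACG, which the full element also contains, was in 3 of 12 windows (*Pde4a*, *Pde4b* and *Pde8a*), against 20.8% of all. The TEAD motif GGAATG, the site of the factors that YAP binds, was in 1 window (*Pde4a*), against 14.7%. The CCAAT box was in 4 windows, against 37.4%. The single *Pde4d* window held none of these motifs, and it covers only 1 of the start sites of a gene with 12 coding transcripts. A match says only that these letters are present in these windows.

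**Figure D1:**
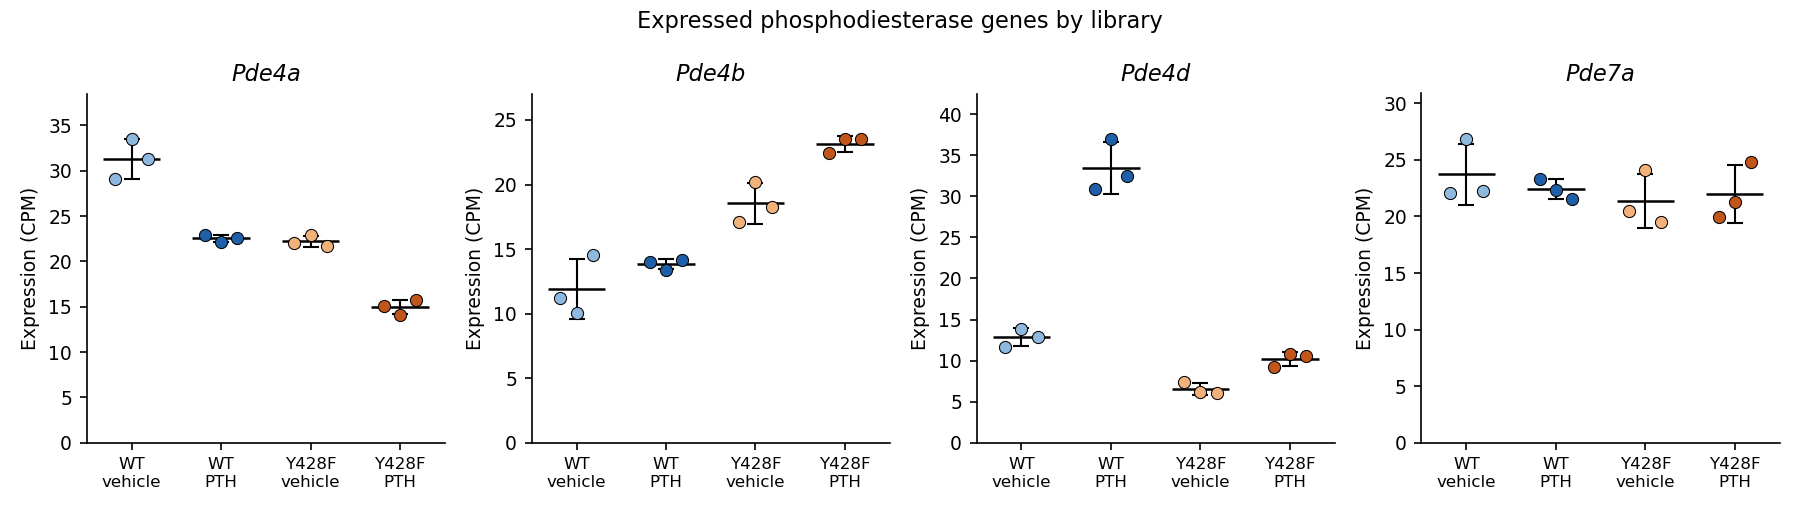
Expression of the 4 expressed genes in CPM (y axis) in each of the 12 libraries (points), with the group mean (line) and SD (bars, n = 3). *Pde4d* lay at 30.9 to 37.0 CPM in the PTH-treated WT libraries and at or below 13.9 CPM in all others, while *Pde7a* overlapped between all groups.

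*Pde4d* encodes a PDE4 enzyme with many isoforms that is anchored near receptors and protein kinase A. The gene (ENSMUSG00000021699.18) covers chr13:108586482-110092497 of GRCm39 on the plus strand, with 20 annotated transcripts, of which 12 are coding. With vehicle, the WT libraries had 11.7, 13.9 and 12.9 CPM. With PTH they had 30.9, 37.0 and 32.5 CPM. Every PTH-treated WT library was thus above every vehicle library. The mean rose from 12.8 ± 1.10 to 33.5 ± 3.15 CPM, a log2 difference of 1.39 (SE 0.0949, 95% interval 1.19 to 1.59), or 2.62-fold, with an adjusted p of 8.98e-07 (edgeR quasi-likelihood test). Without WT PTH library 1 the log2 difference was 1.46 (adjusted p = 1.68e-05).

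The Y428F libraries had lower *Pde4d* levels under both conditions. With vehicle they had 7.39, 6.17 and 6.06 CPM, all below the WT vehicle libraries. With PTH they had 9.21, 10.8 and 10.6 CPM, above the Y428F vehicle libraries but below all 6 WT libraries. PTH raised *Pde4d* in Y428F cells by a log2 difference of 0.64 (SE 0.12, 95% interval 0.39 to 0.89), or 1.56-fold, with an adjusted p of 0.00112 in edgeR. Y428F cells were lower than WT cells by a log2 difference of -0.97 with vehicle (SE 0.117, adjusted p = 6.80e-07) and of -1.71 with PTH (SE 0.105, adjusted p = 3.07e-11).

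The difference between the lines in the response itself was also tested. The *Pde4d* response was smaller in Y428F cells, with a log2 difference of -0.74 (SE 0.158, 95% interval -1.07 to -0.41, adjusted p = 0.0381 in edgeR). This call was lost in 9 of the 12 fits that each left out 1 library. Over all 12 the difference lay between -0.81 and -0.65, and the adjusted p reached 0.161. Without WT PTH library 1 the difference was -0.79 with an adjusted p of 0.0545. The call was kept without WT vehicle library 2, without WT PTH library 3 and without Y428F PTH library 2.

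*Pde4a*, which encodes another cAMP-specific PDE4 enzyme (ENSMUSG00000032177.18, chr9:21073005-21124544, plus strand), moved in the opposite direction with PTH. The WT libraries had 29.1, 33.5 and 31.3 CPM with vehicle and 22.9, 22.1 and 22.6 CPM with PTH. The Y428F libraries had 22.1, 22.9 and 21.7 CPM with vehicle and 15.1, 14.1 and 15.7 CPM with PTH. All PTH-treated libraries lay below the vehicle libraries of the same line, and the Y428F vehicle libraries overlapped the WT PTH libraries, at 22.2 ± 0.624 and 22.5 ± 0.369 CPM. *Pde4a* fell by 0.47 on the log2 scale in WT cells (SE 0.0789, adjusted p = 0.00187) and by 0.57 in Y428F cells (SE 0.0832, adjusted p = 9.03e-05). Y428F cells were lower by a log2 difference of -0.49 with vehicle (adjusted p = 2.40e-05) and of -0.59 with PTH (adjusted p = 5.93e-06). No difference in the *Pde4a* response between the lines was detected (-0.09, 95% interval -0.33 to 0.15, adjusted p = 0.932).

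*Pde4b* encodes a PDE4 enzyme best known from immune cells and brain (ENSMUSG00000028525.17, chr4:101944740-102465716, plus strand), and it was the PDE4 gene that was higher in Y428F cells. The WT libraries had 11.2, 10.1 and 14.5 CPM with vehicle and 14.0, 13.4 and 14.2 CPM with PTH, and these groups overlapped. The Y428F libraries had 17.1, 20.2 and 18.3 CPM with vehicle and 22.4, 23.5 and 23.5 CPM with PTH, with no overlap between these groups or with the WT libraries. Y428F cells were higher than WT cells by a log2 difference of 0.63 with vehicle (SE 0.112, adjusted p = 8.19e-05) and of 0.74 with PTH (adjusted p = 1.00e-05). With PTH the log2 difference was 0.22 in WT cells (95% interval -0.05 to 0.49, adjusted p = 0.319). It was 0.32 in Y428F cells (95% interval 0.10 to 0.54, adjusted p = 0.0537), just outside the threshold. This last comparison passed the threshold with a DESeq2 test (adjusted p = 0.046), without a count filter (0.0205), with at least 10 counts required in every library (0.045) and with the replicate number as a block (0.0451). It did not pass with DESeq2 size factors (0.0529), a length offset (0.0518) or library totals (0.0873), nor in any of the 6 fits that left out 1 library (0.0531 to 0.203). The response of *Pde4b* was not shown to differ between the lines (0.11, 95% interval -0.22 to 0.44, adjusted p = 0.951).

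*Pde7a* encodes a cAMP-specific enzyme that rolipram does not block (ENSMUSG00000069094.13, chr3:19277270-19365890, minus strand). It overlaps exons of *Mtfr1* on the other strand, and the labels do not settle whether the libraries kept strand, so reads of the pair may not be told apart. Exons of predicted genes also lie on the strand opposite *Pde4d* (Gm59739, Gm60590 and Gm60578), *Pde4a* (Gm36118 and Gm69186), *Pde8a* (Gm73624), *Pde3a* (Gm28523) and *Pde10a* (Gm64887). Exons of 4933406I18Rik lie opposite *Pde3b*. The same limit applies to these members, while *Pde4b* and *Pde7b* have no such overlap. The WT libraries had 22.1, 26.8 and 22.3 CPM with vehicle and 23.4, 22.3 and 21.6 CPM with PTH. The Y428F libraries had 20.5, 24.1 and 19.6 CPM with vehicle and 19.9, 21.3 and 24.8 CPM with PTH. All 4 groups overlapped. The log2 differences were -0.07 with PTH in WT cells (95% interval -0.27 to 0.12, adjusted p = 0.692), 0.04 with PTH in Y428F cells (-0.18 to 0.26, adjusted p = 0.879) and -0.15 between the lines with vehicle (-0.36 to 0.07, adjusted p = 0.270).

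**Figure D2:**
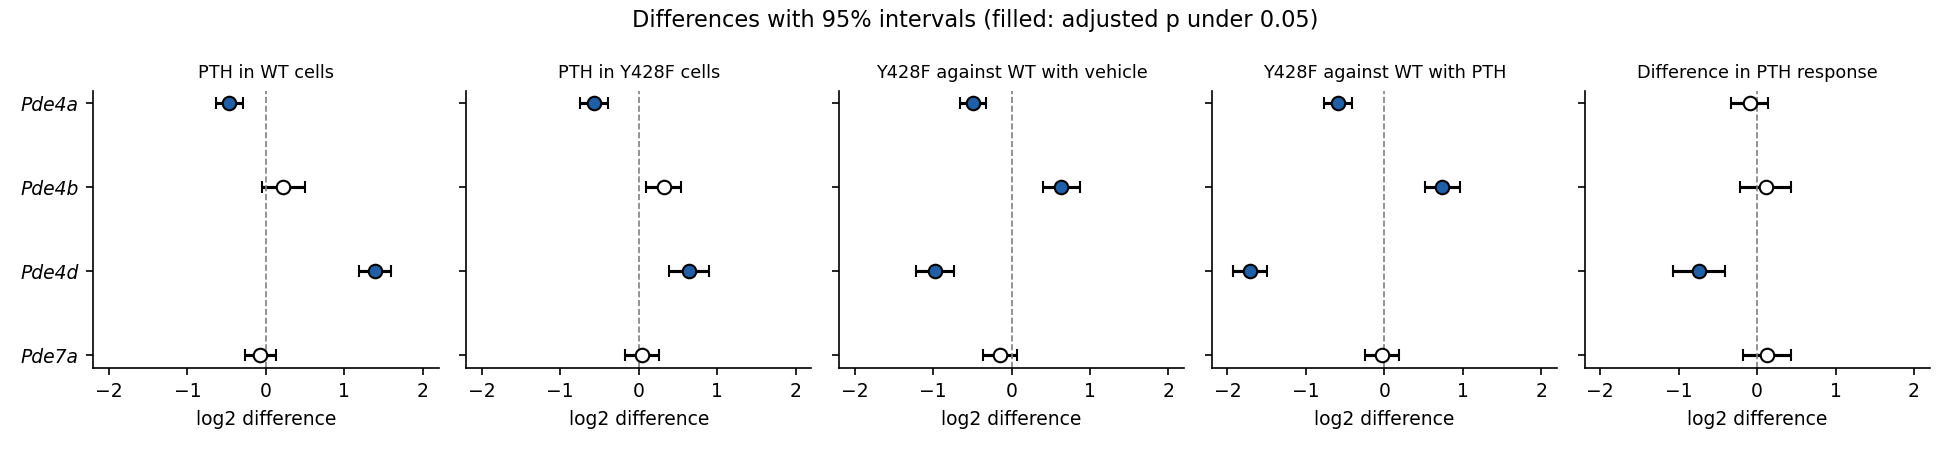
Log2 differences (x axis) of the 4 expressed genes in the 5 comparisons (panels), with 95% intervals (bars) from the edgeR fit; filled points have an adjusted p under 0.05. *Pde4d* and *Pde4a* were called in opposite directions with PTH, and *Pde4d* alone of the 4 was called for the difference in response, at -0.74.

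Read against all genes tested, these calls were as follows. In WT cells PTH raised 1 of the 5 members tested, *Pde4d*, against 6.88% of all genes, and lowered 1, *Pde4a*, against 4.91%. In Y428F cells the same genes were called among 6 tested members, against 6.61% higher and 5.78% lower over all genes. The median log2 difference of the tested members was 0.22 in WT cells and -0.05 in Y428F cells, beside -0.01 over all genes in both. Between the lines with vehicle, 2 members were higher (*Pde3b* and *Pde4b*) and 2 lower (*Pde4a* and *Pde4d*), against 22.4% and 22.7% of all genes. With PTH, 1 was higher (*Pde4b*) and 2 lower (*Pde4a* and *Pde4d*), against 22.8% and 23%. For the difference in response, 1 member was lower (*Pde4d*) and none higher, against 0.243% and 0.17% of all genes. No second member had an adjusted p under 0.05 for that difference, where 1247 genes had an unadjusted p under 0.05. The comparisons of a line with PTH share its libraries with the comparisons between lines.

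The balance of the PDE4 genes was also examined within each library, where it does not depend on scaling between libraries. The ratio of *Pde4d* to *Pde4b* counts was 1.04, 1.38 and 0.889 in WT vehicle libraries and 2.21, 2.76 and 2.30 in WT PTH libraries. In Y428F cells it was 0.433, 0.305 and 0.331 with vehicle and 0.411, 0.458 and 0.450 with PTH. These Y428F groups overlapped, whereas the WT groups did not, and every Y428F library was below every WT library. The ratio of *Pde4d* to *Pde4a* counts was 0.401, 0.414 and 0.413 in WT vehicle libraries and 1.35, 1.67 and 1.44 in WT PTH libraries. In Y428F cells it was 0.335, 0.269 and 0.280 with vehicle and 0.608, 0.765 and 0.674 with PTH. PTH-treated libraries were higher in both lines for this ratio, in which the numerator rose and the denominator fell.

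**Figure D3:**
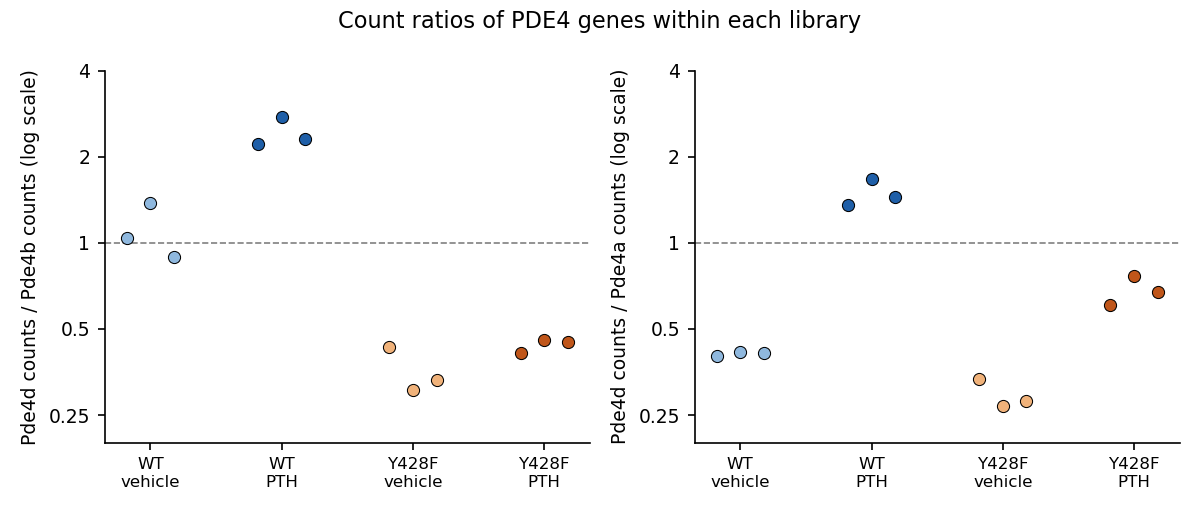
Ratio of *Pde4d* to *Pde4b* counts (left) and of *Pde4d* to *Pde4a* counts (right) on a log axis in each of the 12 libraries (points). The *Pde4d* to *Pde4b* ratio was 2.21 to 2.76 in PTH-treated WT libraries and no higher than 0.458 in any Y428F library.

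To compare levels between genes, CPM were divided by the length of the merged exons in kilobases (CPM per kb). In WT cells with vehicle the order was *Pde4a* (3.67), *Pde7a* (2.35), *Pde4b* (1.01) and *Pde4d* (0.885), and the libraries of *Pde4b* and *Pde4d* overlapped. In WT cells with PTH it was *Pde4a* (2.64), *Pde4d* (2.31), *Pde7a* (2.22) and *Pde4b* (1.17), with *Pde4d* and *Pde7a* overlapping. By this length *Pde4d* was the lowest of these 4 with vehicle and the second with PTH. In Y428F cells with vehicle the order was *Pde4a* (2.61), *Pde7a* (2.11), *Pde4b* (1.57) and *Pde4d* (0.451), with no neighbours overlapping. In Y428F cells with PTH it was *Pde7a* (2.18), *Pde4b* (1.96), *Pde4a* (1.76) and *Pde4d* (0.702), with *Pde7a* and *Pde4b* overlapping. The order depended on the length. By canonical transcript length *Pde4d* was second to *Pde4a* in WT cells with vehicle (5.23 against 6.69 CPM per kb) and first with PTH (13.6). By that length it was the lowest of the 4 in Y428F cells with vehicle (2.66) and second to *Pde4b* with PTH (4.15 against 4.27).

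The summed level of the 9 genes was 7.94 ± 0.513 CPM per kb in WT cells with vehicle and 8.41 ± 0.121 with PTH, and 6.81 ± 0.388 and 6.65 ± 0.374 in Y428F cells. The groups of each line overlapped. By canonical transcript length the sum was 17.7 ± 1.18 and 24.5 ± 1.06 CPM per kb in WT cells with vehicle and PTH, with no overlap, and 14.1 ± 0.652 and 15 ± 0.791 in Y428F cells, which overlapped. *Pde4d* held 11.1% ± 0.242 of the sum in WT cells with vehicle and 27.4% ± 2.28 with PTH, against 6.64% ± 0.889 and 10.6% ± 0.726 in Y428F cells. These shares depend on the length used. The merged exons of *Pde4d* cover 14508 bases and its canonical transcript 2455, and with canonical lengths the shares became 29.5%, 55.6%, 18.9% and 27.7%, with *Pde4d* first among the 9 genes in WT cells with PTH.

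**Figure D4:**
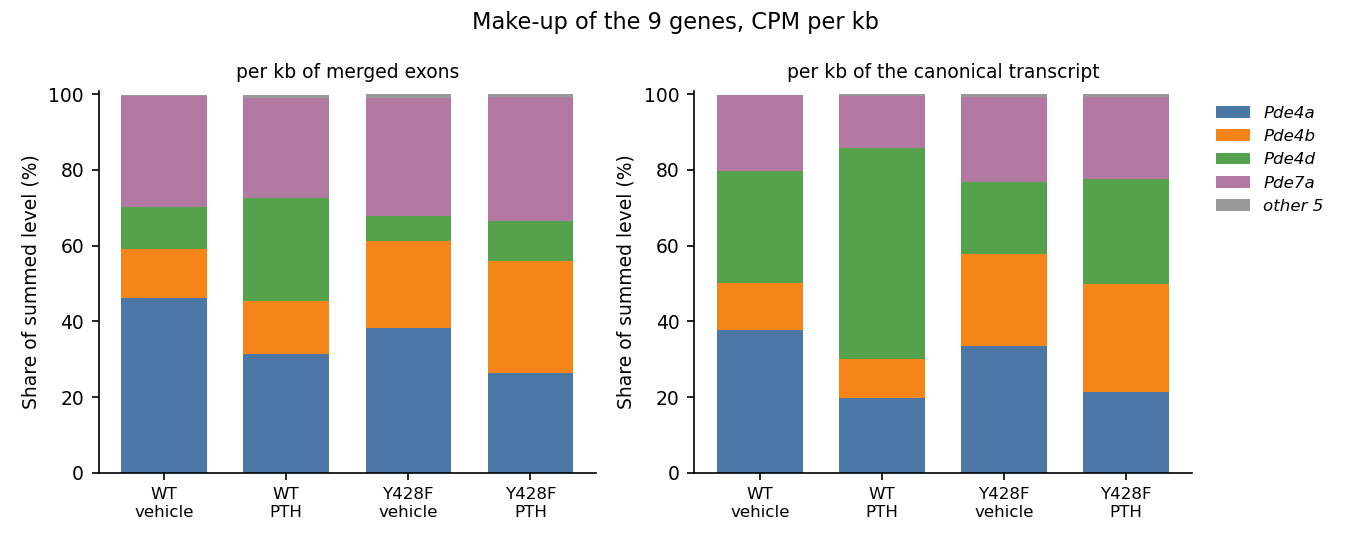
Share of each gene (percent, y axis) in the summed CPM per kb of the 9 genes in each group, by merged exon length (left) and by canonical transcript length (right). The *Pde4d* share was larger with PTH than with vehicle in both lines under both lengths.

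The 5 other members gave few counts. *Pde8a*, a high-affinity cAMP-specific enzyme (ENSMUSG00000025584.18, chr7:80862941-80984284, plus strand), had 54 counts over the 12 libraries. It had 4, 0 and 4 counts in WT vehicle libraries and 5, 5 and 8 in WT PTH libraries. In Y428F libraries it had 10, 3 and 2 counts with vehicle and 6, 3 and 4 with PTH. The WT groups did not overlap, but the log2 difference of 1.27 had a 95% interval from -0.51 to 3.05 (adjusted p = 0.385). *Pde7b*, the close relative of *Pde7a* (ENSMUSG00000019990.16, chr10:20273567-20600886, minus strand), had 2, 1 and 2 counts in the Y428F PTH libraries and 0 in all 9 others, too few to test.

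Among the enzymes that also hydrolyse cGMP, *Pde3b*, known for its role in insulin action in adipocytes (ENSMUSG00000030671.10, chr7:114013685-114138486, plus strand), had 7, 2 and 8 counts in Y428F vehicle libraries and 0 in all 3 WT vehicle libraries. Against a floor of 3 counts over the WT group its 17 counts were at least 5.54-fold higher in Y428F cells (adjusted p = 0.0143 in edgeR), and 4.35-fold to 7.54-fold when 1 Y428F vehicle library was left out. This limit takes the Y428F counts as observed and leaves out their own counting error. The call was lost at an adjusted p under 0.01, and *Pde3b* was not tested where at least 10 counts were required in every library, so that 1 member in place of 2 was then higher between the lines with vehicle. With PTH the Y428F libraries had 2, 1 and 1 counts and the WT libraries 8, 0 and 0, and no difference was detectable at this depth (adjusted p = 0.541). The WT PTH library 1 held all 8 of the WT counts of *Pde3b* and also all 3 counts of *Pde10a*, a gene of striatal neurons (ENSMUSG00000023868.18, chr17:8744204-9205482, plus strand). Without that library the WT PTH group had 0 counts of *Pde3b*. The fitted log2 difference between the lines with PTH was then 3.56 in place of -1.03 (adjusted p = 0.175 in edgeR). Over a group at 0 counts this value gives no size, and its direction cannot be read. *Pde3a*, the cardiac and platelet form (ENSMUSG00000041741.11, chr6:141194888-141453174, plus strand), had 7 counts in all and at most 2 in a library. A count of 0 in a library allows up to 3 counts, for counting error only.

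**Figure D5:**
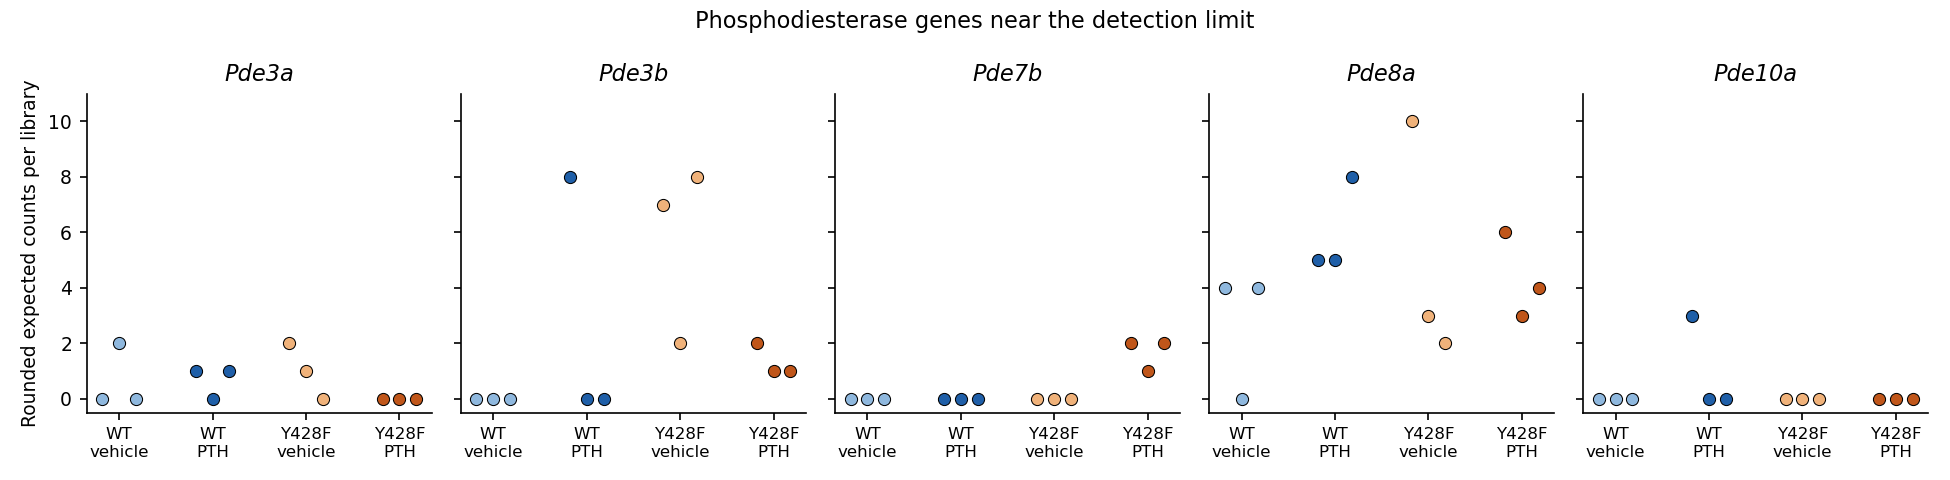
Rounded expected counts (y axis) of the 5 genes near the detection limit in each of the 12 libraries (points). No value exceeds 10, and the WT counts of *Pde3b* and *Pde10a* came from a single PTH-treated library.

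Among genes averaging 2 CPM or more, those whose log2 CPM followed *Pde4d* most closely over the 12 libraries were *Ehbp1l1* (Pearson r = 0.989), *Myl9* (0.985), *Frmd6* (0.984), *Uso1* (0.984) and *Yap1* (0.984). These r values describe 12 libraries in 4 groups and share their libraries and scaling. Like *Pde4d*, *Myl9*, a myosin light chain, was highest in WT cells with PTH at 238.0 ± 9.17 CPM, followed by 102.1 ± 0.257 in WT vehicle, 78.3 ± 1.96 in Y428F PTH and 49.2 ± 1.87 CPM in Y428F vehicle libraries. *Yap1* was at 188.8 ± 7.20 and 240.4 ± 8.75 CPM in WT cells with vehicle and PTH, and at 146.5 ± 4.64 and 171.1 ± 2.66 CPM in Y428F cells. *Yap1* counts do not separate the cell's own transcript from an introduced one, so they do not check the label of the Y428F libraries.

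Other phosphodiesterase genes were examined beside the members. *Pde2a*, a cGMP-stimulated enzyme that hydrolyses both cyclic nucleotides, had the highest level per length of the 23 phosphodiesterase genes in each group by either length. By merged exons it was at 10.5, 10.4, 8.74 and 8.20 CPM per kb in WT vehicle, WT PTH, Y428F vehicle and Y428F PTH cells, and by canonical transcript length at 18.7, 18.4, 15.5 and 14.6. No call was made for it with PTH (log2 difference -0.02 in WT cells, adjusted p = 0.937). Of the 7 other genes whose enzymes take cAMP, 4 could be tested and none was called with PTH in either line. Over all genes 6.88% were higher and 4.91% lower in WT cells, and 6.61% and 5.78% in Y428F cells. At those shares 4 genes are little to read from. Between the lines with vehicle 1 of the 4 was higher and 1 lower, beside 22.4% and 22.7% of all genes. With PTH 1 was higher (*Pde8b*) and 2 lower (*Pde1a* and *Pde2a*), beside 22.8% and 23%. Between the lines with vehicle, *Pde8b*, the relative of *Pde8a*, was higher in Y428F cells (0.697 against 2.87 CPM, log2 difference 2.02, adjusted p = 0.000140). *Pde1a*, a calcium-calmodulin-dependent enzyme, was lower (2.97 against 0.233 CPM, log2 difference -3.65, adjusted p = 2.11e-08). The cGMP-specific *Pde5a* was higher (5.27 against 8.30 CPM, log2 difference 0.66, adjusted p = 0.000786 in edgeR). It was the only 1 called between the lines with vehicle among 3 tested genes of cGMP-specific phosphodiesterases. Between the lines with PTH, *Pde5a* (log2 difference 0.75) and *Pde6b* were higher in Y428F cells, beside 22.8% of all genes. *Pde6b* had 0 to 4 counts in the Y428F PTH libraries and 0 in the WT PTH libraries. None of these genes was called for PTH against vehicle in either line.

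Upstream of the phosphodiesterases, the PTH receptor gene *Pth1r* had 0 to 10 counts in each library. Of the receptor, Gs and adenylyl cyclase genes, 1 of 8 tested was called in WT cells with PTH and 1 of 10 in Y428F cells, in both cases *Adcy6*, a calcium-inhibited cyclase. Over all genes 4.91% were lower in WT cells and 5.78% in Y428F cells, so 1 gene is little to read from. It fell by 0.23 on the log2 scale in WT cells (275 to 234 CPM, adjusted p = 0.0435) and by 0.26 in Y428F cells (183 to 152 CPM, adjusted p = 0.00773). Among the effectors of cAMP, PTH raised 1 and lowered 1 of 9 tested in WT cells, and lowered 1 of 12 in Y428F cells, which is again few genes beside those shares. *Rapgef3*, which encodes Epac1, fell by 0.56 in WT cells (adjusted p = 0.000495) and by 0.51 in Y428F cells (adjusted p = 0.000734), and *Prkar2a*, a regulatory subunit of protein kinase A, rose by 0.38 in WT cells (adjusted p = 0.00362).

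Of the 15 genes for anchors and scaffolds of phosphodiesterases, PTH raised 2 and lowered none in WT cells, and raised 1 and lowered 3 in Y428F cells. Over all genes 6.88% were higher and 4.91% lower in WT cells, and 6.61% and 5.78% in Y428F cells. *Akap1*, which anchors protein kinase A at mitochondria, rose in both lines (log2 differences 0.35 and 0.22, adjusted p = 0.00557 and 0.0182). *Arrb2*, which encodes an arrestin that carries PDE4D to receptors, was called in Y428F cells (-0.38, adjusted p = 0.00676) and had a log2 difference of -0.21 in WT cells (adjusted p = 0.179). This difference in response had an adjusted p of 0.872. *Arrb1*, another arrestin gene, and *Pde4dip* were also called lower in Y428F cells (-0.28 and -0.23, adjusted p = 0.0108 and 0.0370 in edgeR). In WT cells they had log2 differences of -0.18 and -0.13 (adjusted p = 0.186 and 0.307). The cAMP exporters *Abcc4* and *Abcc5* were not called with PTH in either line.

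Among CREB family factors and early cAMP targets, PTH raised 4 and lowered 1 of 17 tested in WT cells, and raised 6 and lowered 1 of 18 in Y428F cells, where all genes gave 6.88% higher and 4.91% lower in WT cells and 6.61% and 5.78% in Y428F cells. *Ptgs2*, which encodes cyclooxygenase-2, rose by a log2 difference of 0.99 in WT cells (30.1 to 59.7 CPM, adjusted p = 0.000816) and of 1.30 in Y428F cells (24 to 59.1 CPM, adjusted p = 1.55e-06). *Nr4a1*, an orphan nuclear receptor gene, rose by 0.77 (adjusted p = 8.38e-05) and 1.04 (adjusted p = 2.30e-06). The genes called lower were *Nr4a2* in WT cells (-0.44, adjusted p = 0.0238 in edgeR) and *Sik1* in Y428F cells (-0.35, adjusted p = 0.0131 in edgeR). *Fos*, *Crem* and *Per1* were not called with PTH in either line. The difference in response was 0.32 for *Ptgs2* (adjusted p = 0.811) and 0.27 for *Nr4a1* (adjusted p = 0.775), in the direction opposite to that of *Pde4d*, and neither was called. *Junb*, an AP-1 factor, was the only gene of this list called for the difference in response (0.69, adjusted p = 0.0215).

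The cell type was checked with marker genes. Stromal markers summed to 25200 to 28900 CPM in WT libraries and 15500 to 19500 CPM in Y428F libraries, with *Col1a2* the most abundant *Thy1* at 0 throughout, and *Lepr* and *Alpl* no higher than a mean of 1.03 and 0.255 CPM in any group. Between the lines with vehicle, 7 of 11 tested were lower in Y428F cells and 2 higher, against 22.7% and 22.4% of all genes. The higher ones were *Ly6a* (138 against 324 CPM, log2 difference 1.23, adjusted p = 2.38e-12) and *Lepr* (2.77, adjusted p = 0.000244). The 9 haematopoietic markers summed to 0.923 to 2.33 CPM in WT and 3.08 to 4.74 CPM in Y428F libraries, with *Cd3e* and *Hbb-bt* at 0. *Ptprc*, the pan-leukocyte CD45 gene and the most abundant of them, was higher in Y428F cells with vehicle (0.853 against 2.79 CPM, log2 difference 1.70, adjusted p = 2.37e-05 in edgeR). With PTH its log2 difference between the lines was 2.73 (adjusted p = 1.36e-07 in edgeR). It was the only 1 of 4 tested haematopoietic markers called with vehicle, beside 22.4% of all genes higher. The log2 differences of *Cd68* (0.82), *Csf1r* (-0.98) and *Itgam* (-2.61) with vehicle were not called. The 5 endothelial markers summed to at most 1.77 CPM in WT and 6.12 to 9.94 CPM in Y428F libraries, most of it *Cdh5*, with *Kdr* and *Emcn* at 0 in all WT libraries. The 7 adipocyte markers summed to 102 to 108 CPM with vehicle and 109 to 117 CPM with PTH in WT libraries, and to 54.6 to 57.7 and 80.6 to 83.9 CPM in Y428F libraries, with *Adipoq* at 0. *Cebpa* was at 46.1 CPM and *Pparg* at 31.7 CPM in WT vehicle cells, and at 9.76 and 39.9 CPM in Y428F vehicle cells. The 4 mature osteoblast markers summed to at most 0.227 CPM. With PTH, 1 of 4 adipocyte markers tested was higher in WT cells and 1 of 5 in Y428F cells, with none lower, and 1 of 11 stromal markers was higher and 1 lower in WT cells, and 1 higher and 2 lower in Y428F cells, beside the shares over all genes given above. *Pparg*, the adipogenic nuclear receptor gene, rose in WT cells (log2 difference 0.52, adjusted p = 0.00136) and in Y428F cells (0.71, adjusted p = 9.62e-07), while *Cebpa* had log2 differences of -0.16 (adjusted p = 0.187) and -0.06 (adjusted p = 0.780). *Pdgfra*, a receptor gene of stromal progenitors, fell by 0.59 (adjusted p = 0.00146) and 0.73 (adjusted p = 7.17e-05), and *Vim*, the vimentin gene, rose by 0.28 (adjusted p = 0.0269) and 0.22 (adjusted p = 0.0128). These moved with the PTH differences of *Pde4d* and *Pde4a*, and their part in them was not tested. Stromal and adipocyte sums were lower and the endothelial and haematopoietic sums higher in Y428F cells, as *Pde4d* and *Pde4a* were lower and *Pde4b* higher. In Y428F libraries most of the haematopoietic sum was *Ptprc* and most of the endothelial sum *Cdh5*. *Cdh5* was the only 1 of 4 tested endothelial markers called with vehicle. Of 5 adipocyte markers tested with vehicle, *Pparg* was called higher (log2 difference 0.33), and *Fabp4* (-2.03) and *Cebpa* (-2.24) lower. The part of these marker differences in the line differences was not tested.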

How the data were processed

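Bulk RNA-Seq was analysed in 12 libraries, 3 in each of 4 groups taken from the titles, since the genotype label of the Y428F libraries reads WT. The deposited values are expected counts per gene. Per the study's methods and the submitters' processing notes, the authors selected poly-A RNA, aligned reads with STAR 2.7.10b to GRCm39 with a GENCODE annotation and estimated counts with RSEM. Expected counts split reads shared between genes or isoforms, so a gene total does not resolve isoforms. Of the deposited values, 6.32% were not whole, and all were rounded.

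Identifiers were matched to GENCODE vM39 without version (56236 of 56980, 744 not matched). Genes with at least 10 counts in total were fitted by the edgeR 4.0.16 quasi-likelihood test in R 4.3.3 with TMM scaling and Benjamini-Hochberg adjustment over all genes tested (threshold 0.05). PTH in WT cells was fitted on the 6 WT libraries (15583 genes), and the other comparisons on all 12 (17691 genes). Scripts were tested on simulated data. Replicate pairs differed by more than counting noise (chi-square per degree of freedom 2.87 to 14.2).

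The members, gene lists and comparisons were chosen with earlier results of these data known. From the lists, up to 5 genes were named, with the smallest adjusted p with PTH and a mean of at least 1 CPM. In addition, the 5 genes most like the lead member over 12 libraries were named from those with a mean of at least 2 CPM. *Thy1*, *Pth1r*, the other marker genes and *Yap1* beyond this rule were named for the checks they serve. *Pde6b*, *Nr4a2*, *Sik1*, *Fos*, *Crem* and *Per1* were also named beyond it, to show further calls and uncalled genes of their lists. Alternatives were DESeq2 1.42.0, other scalings, filters, a length offset, the replicate number as a block and a stricter threshold. Others were canonical lengths, leaving out each library, and PTH in WT cells fitted on all 12 libraries. 1 listed symbol (*Bves*) was not in the matrix.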

Additional observations from a re-analysis of the deposited data

Results flagged for a closer look

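The response of *Pde4d* to PTH differed between the lines by a test of that difference itself, at -0.74 on the log2 scale (Y428F minus WT, edgeR, adjusted p = 0.0381). The call was lost in 9 of the 12 fits that left out 1 library, where the adjusted p reached 0.161, and under the stricter threshold. The response was 1.39 in WT cells and 0.64 in Y428F cells, and PTH-treated libraries lay above vehicle libraries in 3 of 3 libraries in each line.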

How the results depend on the processing

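Values of single members were compared under the alternatives other than the stricter threshold, for which only the numbers called are given below. Of these values, 391 were on the same side of the threshold with no called direction turned, 4 passed it newly and 9 no longer did. The 9 were the *Pde4d* difference in response when 1 library was left out, and the 4 were *Pde4b* with PTH in Y428F cells. When each library was left out, 2 members stayed called with PTH in WT cells, 2 in Y428F cells, 4 between lines with vehicle and 3 with PTH, while the difference in response gave 0 to 1. The genes called then ranged from 905 to 2211 with PTH in WT cells (1837 with all libraries), from 1435 to 1817 in Y428F cells (2192), from 7144 to 7798 between lines with vehicle (7986), from 7358 to 7746 with PTH (8093) and from 24 to 89 for the difference in response (73). Counts moved by over 1.5 times without WT vehicle library 2 (1132), WT vehicle library 3 (1045 in WT cells, 46 for the difference), WT PTH library 1 (905 and 35) and WT PTH library 2 (1060 and 38). They did so as well without Y428F vehicle library 1 (1435 with PTH in Y428F cells, 32 for the difference), and for the difference alone without Y428F vehicle library 2 (31), Y428F vehicle library 3 (38) and Y428F PTH library 3 (24). An adjusted p under 0.01 with a log2 difference beyond 0.3 left 821 genes with PTH in WT cells, 942 in Y428F cells, and 22 genes and 0 members for the difference in response, and 3 members in place of 4 between the lines with vehicle, as did a minimum of 10 counts in every library. That difference gave 216 genes without a count filter and 123 with DESeq2. Fitted on all 12 libraries, PTH in WT cells called 2375 genes in place of 1837, and the members called were still 2.

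Scaling by library totals alone changed the share of calls that were higher from 58.4% to 38% with PTH in WT cells and from 53.4% to 38.1% in Y428F cells, and the members kept their calls. With canonical transcript lengths the *Pde4d* share of the summed level was 29.5%, 55.6%, 18.9% and 27.7% in WT vehicle, WT PTH, Y428F vehicle and Y428F PTH cells. The length divided by fell further for *Pde4d* (14508 to 2455 bases) than for *Pde4a* (8526 to 4681), *Pde4b* (11820 to 5428) and *Pde7a* (10116 to 6703).

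Same-numbered libraries did not deviate together (mean correlation 0.0064, from -0.11 to 0.185 over 18 pairs), and 4 of 12 libraries were most like their own number. With the replicate block, 1643, 2273, 7976, 8027 and 76 genes were called in the 5 comparisons, in the order above, with 3 members in place of 2 for PTH in Y428F cells and no other change in the number of members. Depth limited the 5 members under 11 counts in every library, for which changes of several fold could go undetected.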
